A study of Mus musculus with 5 samples.

Results

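Mt1 and Mt2 encode the metallothioneins of mouse liver, and they were described here through all 3 probe sets whose single annotated gene symbol is Mt1 or Mt2, out of 22690 probe sets on the array. Mt1 has 2 of them, 1422557_s_at and 1451612_at, and Mt2 has 1, 1428942_at. The members were taken by gene symbol with no cut on a measured value, though earlier results of these data were known. All 3 lay above the signal floor on all 5 arrays.

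Metallothioneins are short, cysteine-rich proteins that bind zinc and copper in the cytosol, and also cadmium when it is present. In liver they buffer zinc, and their genes are known to be switched on by metals through the zinc-sensing transcription factor MTF1, by glucocorticoids, by interleukin-6 in the acute phase response, by oxidative stress and by fasting. Mt1 and Mt2 are the forms found in most tissues, whereas Mt3 is known mainly from brain and Mt4 from stratified epithelium.

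Liver RNA of C57B/L mice was hybridised as biotin-labelled cRNA to 5 oligonucleotide arrays, 1 for each group. All mice were 8 weeks old and were kept for 2 weeks before the feeding began. One pair of groups had standard chow or an atherogenic diet, a feed meant to bring on artery disease, for 1 week. The other groups had chow for 10 weeks, the atherogenic diet for 10 weeks, or the diet for 10 weeks with atorvastatin, a drug that blocks HMG-CoA reductase and so cholesterol synthesis, in the final 3 weeks. Each array holds a pool of livers. How many livers were pooled, of which sex, and what the diet contained is not stated in the labels. No group has a replicate, so the values carry no error and no test was made. For the 1-week diet sample the source name reads chow while the title and protocols read atherogenic, and the title was followed.

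The arrays share a 2% trimmed mean of 500.2, but they were not alike at the bright end, where 1422557_s_at and 1428942_at lie. The 200 brightest named probe sets had a median log2 ratio to the 1-week chow array of 0.38 on the 10-week chow array, against -0.08 to 0.16 on the diet arrays. Spike-in controls on the 10-week chow array were 5.76-fold above the 1-week chow array, and 1.05-fold to 1.87-fold above it on the diet arrays. The 18S ribosomal RNA control had a geometric mean of 13944 on the atorvastatin array and 437 to 2185 on the others. All 12 measured hepatocyte markers lay lower on the 10-week diet array than on the 10-week chow array, with a median log2 ratio of -0.47 that was -0.21 after cyclic loess and -0.05 after quantile normalization, and 12 of 13 measured Kupffer cell and macrophage markers lay higher, with a median of 0.73. Between the chow arrays the hepatocyte median was 0.73 at 10 weeks over 1 week, 0.42 after cyclic loess and 0.02 after quantile normalization, and the macrophage median -0.64. With atorvastatin 13 of 14 macrophage markers lay higher than on the diet alone, with a median of 0.49, and 13 of 14 higher than on chow at 10 weeks, with a median of 1.26. Their part in the metallothionein values was not tested, and in pooled liver fewer cells of a type and less RNA per cell cannot be told apart.

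Mt1 and Mt2 are neighbours in the mouse genome. In the RefSeq annotation of GRCm38.p6 the cluster on chromosome 8 runs in the order Mt4, Mt3, the noncoding gene Gm39227, Mt2, Mt1, and Mt2 and Mt1 have no other annotated gene between them. Both have a promoter window in RefSeq that holds 250 bases before a start site, chr8:94178839-94179088 for Mt1 and chr8:94172368-94172617 for Mt2, both on the plus strand of GRCm38.p6. For Mt2 that start is the annotated start of the gene. For Mt1, whose record lists 2 transcripts, it lies 206 bases inside the annotated gene, so that only the first bases of its window precede the gene. The sequences are shown because MTF1 acts through short metal response elements near such starts, for Mt2 the 250 bases and for Mt1 the 30 bases around its match, chr8:94179049-94179078. The capitals mark each match to the metal response core, TGCACNC or TGCGCNC, on either strand.
Mt1: aaggggcggtcccgctgTGCACACtggcgc
Mt2: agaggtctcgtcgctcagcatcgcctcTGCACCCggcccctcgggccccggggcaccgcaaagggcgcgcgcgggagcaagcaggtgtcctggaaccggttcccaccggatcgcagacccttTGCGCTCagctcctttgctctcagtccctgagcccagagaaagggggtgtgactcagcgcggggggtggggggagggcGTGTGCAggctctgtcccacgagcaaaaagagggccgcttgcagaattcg
Mt1 has 1 match in these 250 bases, from -23 to -17 counted from that start site, and Mt2 has 3, from -223 to -217, from -128 to -122 and, on the minus strand, from -50 to -44. Of 32851 promoter windows of this length, 21.4% hold at least 1 match and 1.26% hold at least 3. With the 50 bases after the start included, Mt1 has 3 matches and Mt2 has 4, numbers reached by 1.97% and 0.517% of the windows.

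The antioxidant response element, searched as TGACNNNGC on both strands, matched the Mt2 window once, from -79 to -71, and the Mt1 window not at all, while 10.2% of windows hold it. The GC box GGGCGG matched Mt1 at 2 places and Mt2 at 0 (32.7% of windows). The glucocorticoid half-site AGAACA (16.1% of windows) and the E-box CACGTG (6.02%) are not in these 250 bases of either gene. These counts cover only the 250 bases before the start site used, so a motif absent there may lie outside them, for Mt1 as for Mt2. No match overlapped a match of another motif. A match is a run of letters and not a measured site, and the arrays hold no binding data.

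The bright Mt1 probe set, 1422557_s_at, had a signal of 10652 on chow at 1 week, 14894 on the diet at 1 week, 20193 on chow at 10 weeks, 5422 on the diet at 10 weeks and 11956 on the diet with atorvastatin. The 10-week chow array was thus the highest and the 10-week diet array the lowest, 3.72-fold apart. The suffix s of its name is Affymetrix's mark for probes that match more than 1 transcript, so signal from a closely related sequence cannot be told apart from that of Mt1. Going down the order, the chow array at 10 weeks stood 0.44 above the diet at 1 week on the log2 scale, that array 0.32 above atorvastatin, and atorvastatin 0.17 above chow at 1 week. These gaps are smaller than the spread of the 2 chow arrays, where 95% of measured probe sets in the same signal quartile lay between -0.88 and 0.95. The last gap, 0.97 from chow at 1 week down to the diet at 10 weeks, lies beyond that spread.

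Mt2, through 1428942_at, gave 3666 on chow at 1 week, 6993 on the diet at 1 week, 7763 on chow at 10 weeks, 3120 on the diet at 10 weeks and 5310 with atorvastatin. The arrays fall in the order seen for the bright Mt1 probe set: chow at 10 weeks, diet at 1 week, atorvastatin, chow at 1 week, diet at 10 weeks. The highest and the lowest were 2.49-fold apart, and the 4 gaps between neighbours in this order, 0.15, 0.40, 0.53 and 0.23 on the log2 scale, lie inside the spread of the chow arrays. Of 9907 named probe sets above the floor on all arrays, 84 (0.848%) show this order, those of Mt1 and Mt2 included, and 5.18% are highest on chow at 10 weeks and lowest on the diet at 10 weeks.

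The second Mt1 probe set, 1451612_at, was far dimmer and gave another order. Its signal was 275 on chow at 1 week, 546 on the diet at 1 week, 211 on chow at 10 weeks, 392 on the diet at 10 weeks and 463 with atorvastatin, against a floor of 138.9. All 3 diet arrays lay above both chow arrays, and the 10-week chow array, highest for the other 2 probe sets, was the lowest here. Its range was 2.59-fold, and its gaps between neighbours in the order ran from 0.24 to 0.51 on the log2 scale, inside the chow spread of -1.11 to 1.06 for its signal quartile.

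**Figure D1:**
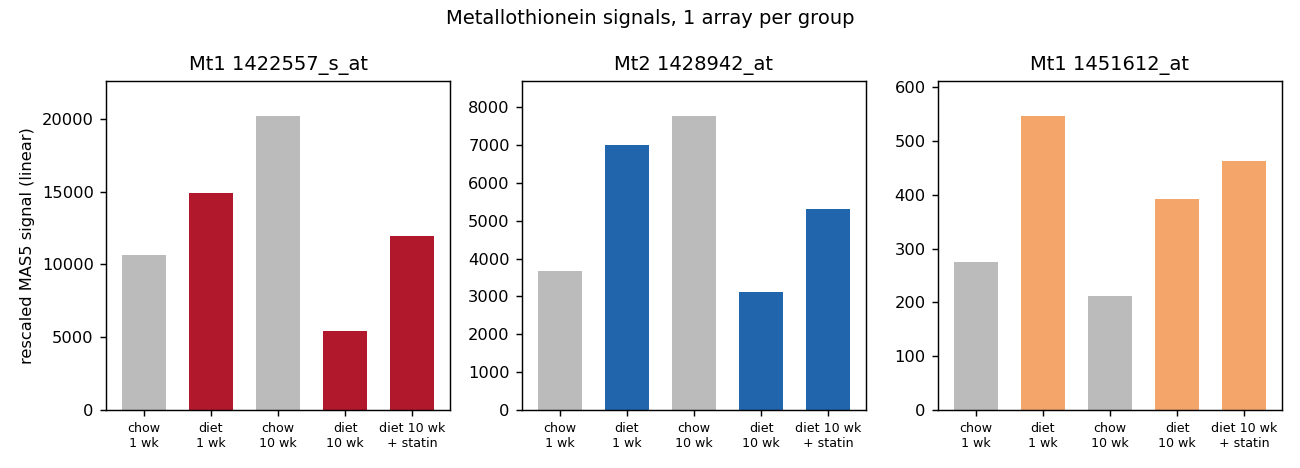
Rescaled MAS5 signal (linear axes from 0, each probe set on its own scale) of the 3 metallothionein probe sets on the 5 arrays, 1 bar per array with no error bar because no group has a replicate; grey bars are chow. The panels of Mt1 1422557_s_at and Mt2 peak on chow at 10 weeks (20193 and 7763) and are lowest on the diet at 10 weeks (5422 and 3120), while Mt1 1451612_at is lowest on chow at 10 weeks (211).

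The other members of the family were not measurable in these pools. Mt3 gave signals of 9.70 to 78.4 and Mt4 of 7.20 to 58.7, both below the floor on all 5 arrays, so no ratio was formed for them.

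At 10 weeks, Mt2 and the bright Mt1 probe set were lower on the atherogenic diet than on chow. The log2 ratio was -1.90 for Mt1 1422557_s_at, 3.72-fold lower, and -1.32 for Mt2, 2.49-fold lower. The other Mt1 probe set went the opposite way, at 0.89, from 211 on chow to 392 on the diet. Thus 2 of 3 probe sets were past 2-fold, both lower, against 7.07% of all measured named probe sets past 2-fold and 3.44% lower. Among the 200 named probe sets nearest in mean signal, which serve as a local background for each member, the median ratio was -0.14 beside Mt1 and -0.06 beside Mt2. In that background 1 of 200 had a ratio as large in size as that of Mt1 1422557_s_at, and 7 of 200 one as large as that of Mt2. The 1 is Asl, a urea cycle gene named after its value was seen, and it too was lower on the diet.

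**Figure D2:**
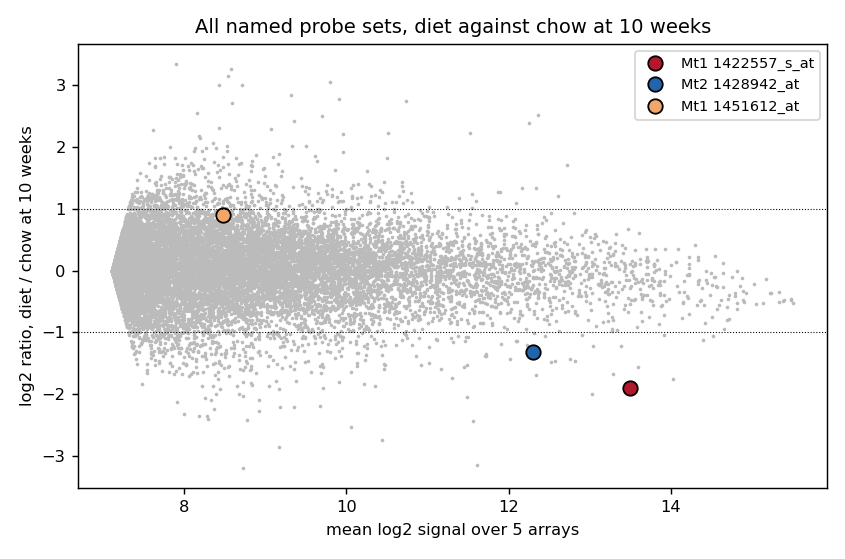
Log2 ratio of the diet over chow at 10 weeks (vertical) against the mean log2 signal over the 5 arrays (horizontal) for all named probe sets (grey points), with the 3 metallothionein probe sets as large points and 2-fold as dotted lines. Mt1 1422557_s_at (-1.90) and Mt2 (-1.32) lie below the lower 2-fold line at the bright end, where few other points do, and Mt1 1451612_at (0.89) lies between both lines.

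The reference array matters for this comparison. With chow at 1 week as the reference instead, the ratio of the 10-week diet was -0.97 for Mt1 1422557_s_at and -0.23 for Mt2, both inside 2-fold, and against the mean of both chow arrays -1.44 and -0.77. The chow arrays themselves differed by 0.92 for Mt1 1422557_s_at and 1.08 for Mt2, both higher at 10 weeks, and by -0.38 for Mt1 1451612_at. Mt2 was the 1 of 3 probe sets past 2-fold between the chow arrays, where 4.63% of measured probe sets were and 2.44% were higher. It had 0.98 with housekeeping scaling, which ends that call. In the local background, 4 of 200 probe sets beside Mt1 1422557_s_at and 3 of 200 beside Mt2 differed as much between the chow arrays. The 4 are 2 probe sets of Sephs2 and those of Rnase4 and Car3, and the 3 are Apoa4, Dcn and Actb, all named after their values were seen.

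After 1 week, all 3 probe sets were higher on the diet than on chow. The log2 ratios were 0.48 for Mt1 1422557_s_at (10652 to 14894), 0.93 for Mt2 (3666 to 6993) and 0.99 for Mt1 1451612_at (275 to 546). None was past 2-fold, where 2.94% of measured probe sets were, and all 3 lay inside the chow spread. Mt1 1451612_at had 1.05 after cyclic loess and 1.03 with housekeeping scaling, just past 2-fold. Within the local background 16 of 200, 5 of 200 and 8 of 200 probe sets had ratios as large in size. The 5 beside Mt2, named after their values were seen, are Apoa4, higher on the diet, and Scd1, Sult2a2 and 2 probe sets of Cyp2b10, all lower.

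The diet ratio therefore had opposite signs at both times for Mt2 and for the bright Mt1 probe set. The 10-week ratio minus the 1-week ratio was -2.38 for Mt1 1422557_s_at and -2.25 for Mt2 on the log2 scale, and -0.10 for Mt1 1451612_at. A difference of that size was found in 0 of 200 probe sets of like brightness for Mt1 1422557_s_at, in 1 of 200 for Mt2, and in 186 of 200 for Mt1 1451612_at. The 1 is Scd1, a fatty acid desaturase gene named after its value was seen, which went the other way (3.34). Of the 4 arrays in this difference, 1 is the 10-week chow array, and with 1 array per group the difference was not tested.

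**Figure D3:**
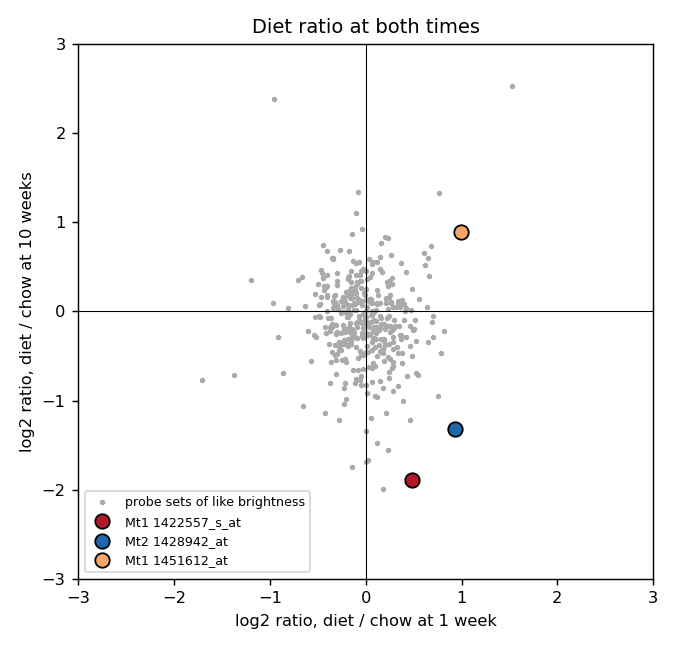
Log2 ratio of diet over chow at 10 weeks (vertical) against that at 1 week (horizontal), with the 3 metallothionein probe sets as large points and the probe sets nearest in mean signal to Mt1 1422557_s_at and Mt2 as small grey points. Mt1 1422557_s_at (0.48 and -1.90) and Mt2 (0.93 and -1.32) sit at the lower right, and Mt1 1451612_at (0.99 and 0.89) at the upper right.

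Between both diet arrays, the 10-week array was lower than the 1-week array for all 3 probe sets. The log2 ratio was -1.46 for Mt1 1422557_s_at, -1.16 for Mt2 and -0.48 for Mt1 1451612_at, so that 2 of 3 were past 2-fold against 10.2% of measured probe sets, 4.87% of them lower. These arrays share the diet and differ in time on it and in age.

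With atorvastatin, the metallothionein signals lay above those of the diet alone. Mt1 1422557_s_at was 2.21-fold higher (5422 to 11956, log2 1.14), Mt2 had a log2 ratio of 0.77 (3120 to 5310) and Mt1 1451612_at 0.24 (392 to 463). The bright Mt1 probe set was thus the 1 of 3 past 2-fold, against 4.49% of measured probe sets and 2.21% higher. In its local background 3 of 200 probe sets had ratios as large, those of Apob, Asl and Grn, named after their values were seen, while 15 of 200 had one as large beside Mt2 and 118 of 200 beside Mt1 1451612_at.

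Set against chow at 10 weeks, the atorvastatin array was lower for Mt1 1422557_s_at (-0.76) and Mt2 (-0.55) and higher for Mt1 1451612_at (1.14). The last was the 1 probe set past 2-fold, against 5.9% of measured probe sets and 3.05% higher. That call is lost with a pseudocount (0.98), with the floor at the 60th percentile (0.72), with both chow arrays averaged as the reference (0.95) and with chow at 1 week as the reference (0.75). Against the 1-week chow array the ratios were 0.17 for Mt1 1422557_s_at and 0.53 for Mt2, both positive. This comparison shares its chow array with that of the diet at 10 weeks, and its atorvastatin array with that of atorvastatin over the diet.

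**Figure D4:**
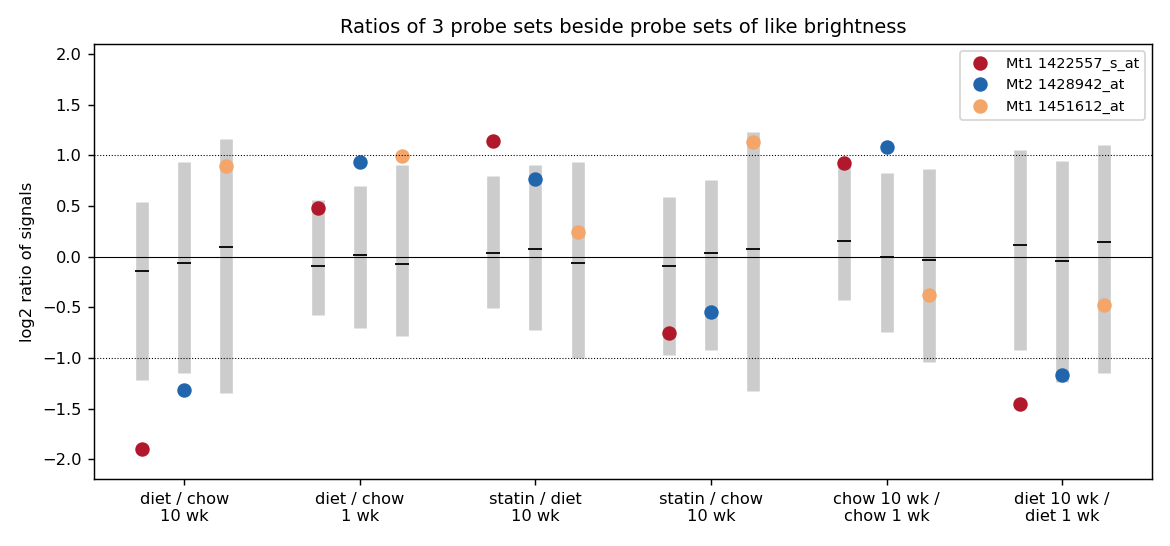
Log2 ratios (vertical) of the 3 metallothionein probe sets in the 6 comparisons (horizontal; statin is the diet with atorvastatin). Points are the members, grey bars the central 95% and black ticks the median of the 200 named probe sets nearest in mean signal, and dotted lines 2-fold. Mt1 1422557_s_at (-1.90) and Mt2 (-1.32) lie below their bars for the diet at 10 weeks. Mt1 1422557_s_at lies above its bar for atorvastatin over the diet (1.14) and below it between the diet arrays (-1.46). Between the chow arrays Mt1 1422557_s_at (0.92) and Mt2 (1.08) lie above their bars. At 1 week Mt2 (0.93) and Mt1 1451612_at (0.99) do.

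Mt1 and Mt2 tracked each other more closely than did both probe sets of Mt1. The log2 ratios of Mt1 1422557_s_at and Mt2 differed by 0.16 to 0.58 in size over the 6 comparisons. Their signs were the same in all 6, which follows from their shared order of arrays and adds nothing to it. As a measure of likeness, the root mean square difference of log2 signals, each centred on its own mean over the 5 arrays, was 0.25 between these 2 probe sets. From Mt1 1422557_s_at, Mt2 ranked 31 of 6952 genes. Between both Mt1 probe sets the difference was 0.92, above the median of 0.67 over all genes. Between Mt2 and Mt1 1451612_at it was 0.74, above the median of 0.56 over all genes for Mt2. The likeness to Mt2 thus holds for the s probe set alone, where signal from a closely related sequence cannot be told apart.

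For the diet at 10 weeks no other gene compared had probe sets as far apart as those of Mt1. Among 2065 genes with at least 2 probe sets above the floor on all arrays, the brightest and the next brightest differed in this log2 ratio by a median of 0.42 in size and by less than 1.31 in 95% of genes. For Mt1 they differed by 2.79, the largest of the 2065, ahead of Lipa with 2.46 and Cdc73 with 2.35, both named after their values were seen. Opposite signs are common among these genes, at 41.3%. The signals of the 2 Mt1 probe sets also lie far apart: among the 29 genes whose probe sets are at least 3 apart in mean log2 signal, the median difference was 0.58.

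In other comparisons the Mt1 probe sets were closer. They differed by 0.51 for the diet at 1 week, with 35.2% of genes differing as much, by 0.90 for atorvastatin over the diet (10.2%) and by 0.98 between the diet arrays (21.6%). For the pairs that hold the 10-week chow array they differed by 1.89 for atorvastatin over chow, with 0.533% of genes as large, and by 1.30 between the chow arrays, with 2.81%. Of the 6 comparisons, the 3 with opposite signs for Mt1 are the 3 that use the 10-week chow array. Opposite signs are not confined to that array. Against chow at 1 week the 10-week diet had -0.97 for Mt1 1422557_s_at and 0.51 for Mt1 1451612_at. Atorvastatin against chow at 1 week had 0.17 and 0.75, of the same sign.

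**Figure D5:**
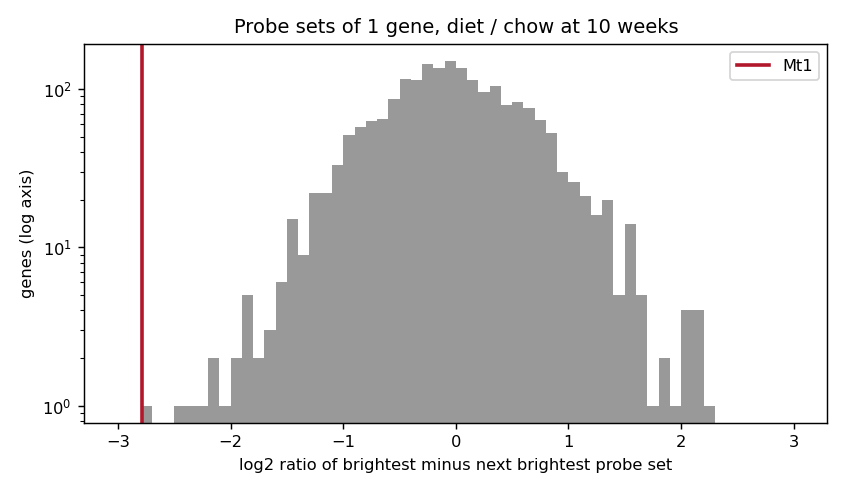
Number of genes (vertical, log axis) by the difference between the log2 ratios of their brightest and next brightest probe sets for the diet over chow at 10 weeks (horizontal), over 2065 genes. The vertical line marks Mt1 at -2.79, beyond all other genes.

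The genes closest in pattern to each member are named only for their likeness over the 5 arrays. Nearest to Mt1 1422557_s_at were Rnps1 (root mean square difference 0.15), Dync1li1 (0.15), Pofut2 (0.16), Ppp3ca (0.17) and Ppp2ca (0.17). Nearest to Mt2 were Rnaseh2c (0.07), Reep3 (0.11), Agfg1 (0.13), Rreb1 (0.14) and Plpp3 (0.14). For Reep3 the signals ran from 1205 on the diet at 10 weeks to 3138 on chow at 10 weeks. Nearest to Mt1 1451612_at were Rnf214 (0.10), Mylk (0.11), Bad (0.12), Dtd1 (0.16) and Ulk2 (0.16). The median over all genes was 0.56 for Mt2 and 0.55 for Mt1 1451612_at.

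Among genes that sense and move metals, 0 of 28 measured members were past 2-fold for the diet at 10 weeks, with a median log2 ratio of -0.07 against 0.05 for all genes, of which 6.7% were past 2-fold. Mtf1, the zinc sensor that drives metallothionein transcription, had signals of 209 on chow and 297 on the diet at 1 week, and of 238 on chow, 227 on the diet and 354 with atorvastatin at 10 weeks. Its ratio was -0.07 for the diet at 10 weeks and 0.64 for atorvastatin over the diet, while its other probe set, below the floor on 3 arrays, gave -0.08 and -0.25. Slc30a1, a zinc exporter also known as a target of MTF1, had 222 and 272 at 1 week and 275, 190 and 264 at 10 weeks. These fall in the same order of arrays as Mt1 1422557_s_at and Mt2, over a range of 1.45-fold. The signals of 275, 272 and 264 are so close that their order carries no weight. Slc30a1 was the 1 of 27 members above the floor on all arrays with that order, which 0.795% of genes show by their brightest probe set.

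The zinc importers did not share one direction. For the diet at 10 weeks Slc39a6 had 0.86, Slc39a3 0.74 and Slc39a1 -0.67, and the copper chaperone gene Cox17 had -0.69. The importer gene Slc39a14, which is known to be driven by interleukin-6, had 0.24, and 0.53 from its other probe set. At 1 week 1 of 28 members was past 2-fold, Commd1, a copper metabolism gene, at -1.35, where 2.31% of all genes were and their median was -0.03. With atorvastatin over the diet 1 of 27 was, again Commd1 (-1.16), against 4.33% of genes, and the copper chaperone gene Atox1 had 0.92. With each gene as the mean of all its probe sets, 0 were past 2-fold in either comparison. Slc39a1 had 1.36 between the chow arrays, 1 of 28 past 2-fold against 4.43% of genes. Between the diet arrays 3 of 27 were higher at 10 weeks and 0 lower, Commd1 (1.76), Slc39a6 (1.13) and Slc39a3 (1.02), against 8.54% of genes past 2-fold and 4.85% higher. This number was 1 after quantile normalization or with a pseudocount, and 0 when probe sets of a gene were averaged.

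Glucocorticoids are another known inducer of metallothioneins. The list of the glucocorticoid receptor and its targets has 19 measured members. For the diet at 10 weeks 3 were past 2-fold lower and 0 higher, where 3.07% of all genes were lower. The list median was -0.68, and it was -0.46 after quantile normalization and -0.50 after cyclic loess. G6pc, the glucose-6-phosphatase gene, had -1.43 and the kinase gene Sgk1 -1.30. The clock gene Per1 was below the floor on the diet array, and the gluconeogenic gene Pck1 had -0.98. At 1 week 2 of 19 were lower, Dusp1 (-1.05) and Ddit4 (signals of 618 on chow and 309 on the diet), against 1.25% of genes, with a median of -0.28, and 1 was after quantile normalization, with housekeeping scaling or with a pseudocount. With atorvastatin over the diet 0 of 19 were past 2-fold, with a median of -0.12, and 1 was with a pseudocount or the floor at the 20th percentile. The receptor gene Nr3c1 had 0.55, 0.01 and -0.88 in these 3 comparisons. Its other probe sets gave 0.75 and 1.16 for the diet at 10 weeks, the latter with its chow signal below the floor.

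Genes of the fasting response, in which metallothioneins are also known to be raised, were lower for 6 of 18 members and higher for 0 for the diet at 10 weeks, with a median of -0.69, where 3.07% of all genes were lower. G6pc is counted in this list too, and both lists hold Pck1. They also share Igfbp1 and Lpin1, named only for that overlap, so the lists are not separate. Nnmt, a nicotinamide methyltransferase gene, had -2.43, the p21 gene Cdkn1a -2.19 and the thioesterase gene Acot1 -2.04. Fgf21 was below the floor on the diet array. At 1 week 2 of 18 were lower, Cdkn1a (-1.03) and Pdk4 (-1.01), with a median of -0.11, against 1.25% of genes. That count was 1 after quantile normalization or cyclic loess and 0 with housekeeping scaling or a pseudocount. With atorvastatin over the diet 2 were higher, Nnmt (2.56) and Acot1 (1.24), with a median of 0.02, against 2.16% of genes. Between the chow arrays 0 of 18 were past 2-fold, against 4.43% of genes, and 1 was with housekeeping scaling or the mean of all probe sets.

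In the interleukin-6 and acute phase list 6 of 30 members were higher and 0 lower with atorvastatin over the diet, with a median of 0.18 against -0.02 for all genes, 2.16% of which were higher. Saa1, a serum amyloid gene, had 4.40, Saa2 3.95 and the iron-siderophore binding gene Lcn2 2.86, beside 1.14 and 0.77 for Mt1 1422557_s_at and Mt2. The macrophage markers also lay higher on that array, 13 of 14, with a median of 0.49, and their part was not tested. Stat3, the factor that relays interleukin-6 signals, had -0.09. For the diet at 10 weeks 2 of 30 were lower, Steap4, a metalloreductase gene (-1.25), and Il1r1, below the floor on the diet array, against 3.07% of genes. That count was 1 with the floor at the 60th percentile or the mean of all probe sets. At 1 week 0 of 30 were past 2-fold, against 2.31% of genes. The medians were -0.13 and -0.09.

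Among genes of oxidative stress and NRF2, a transcription factor that acts through antioxidant response elements, 2 of 27 members were higher and 1 lower for the diet at 10 weeks, with a median of 0.06, where 6.7% of all genes were past 2-fold. Gstm3 had 1.41, Gstm4 1.02 and Gsta2 -2.52, all glutathione S-transferase genes. The signals of Gsta2 were 1362 and 483 at 1 week on chow and the diet, and 3431, 597 and 1042 at 10 weeks on chow, the diet and atorvastatin. Chow at 10 weeks was its highest array, as for Mt2 and Mt1 1422557_s_at, but its lowest was the diet at 1 week. At 1 week 2 of 27 were lower, Gsta2 (-1.50) and Gstm3 (-1.17), against 1.25% of genes, and 1 was with the mean of all probe sets. With atorvastatin over the diet 0 of 27 were past 2-fold, against 4.33% of genes. Between the chow arrays Gsta2 (1.33) and Gclc, a glutathione synthesis gene (1.27), were higher, 2 of 27 past 2-fold against 4.43% of genes.

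The range of each member over the 5 arrays was above the median range of probe sets of like brightness, most clearly for Mt1 1422557_s_at. The median probe set of like brightness varied 1.46-fold beside Mt1 1422557_s_at, 1.52-fold beside Mt2 and 1.72-fold beside Mt1 1451612_at, against 3.72-fold, 2.49-fold and 2.59-fold for the members. A range as wide was found in 2 of 200 probe sets, Sephs2 and Asl, beside Mt1 1422557_s_at, in 15 of 200 beside Mt2 and in 24 of 200 beside Mt1 1451612_at.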

How the data were processed

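The authors' files give a linear intensity for each probe set on each array, and the submitters' processing notes name MAS5, the Affymetrix signal algorithm. No detection calls were used here. All arrays were brought to the same 2% trimmed mean, values under the 40th percentile of the non-control signals (138.9) were set to it, and log2 was taken. Control probe sets (64) were left out of the floor and of the named probe sets. They did enter the trimmed mean, quantile normalization and cyclic loess. Of 22690 probe sets, 20393 have 1 gene symbol, 691 several and 1606 are unnamed here. A gene in a list is its brightest probe set, and it counts as measured where at least 1 of both arrays is above the floor. Of 225 listed genes 199 have a named probe set; Mt1 and Mt2 were left out of the related lists. With 1 array per group, no p-values were made and precision is limited by the number of arrays. A difference is called past 2-fold.

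The text names both members, the 5 genes most like each member probe set, up to 4 members of each list per comparison with the largest ratio, and preset genes; exceptions are marked. Of the preset genes, Slc39a10 is unnamed here. The members, lists and rule were chosen with earlier results of these data known. The local background of 200 probe sets and the count of arrays in the same order were added after the data were seen. Promoters are from RefSeq (GRCm38.p6), where both members matched; no genome build is given for the array. The 2-fold rule and the likeness search were run on simulated data with planted changes. This checks the code only and says nothing of the precision of these arrays. The alternatives were signals without rescaling, cyclic loess, quantile normalization, scaling on 11 housekeeping genes, other floors, a pseudocount, other fold rules, other chow references and other choices of probe set. Python 3.11.15, pandas 2.3.3, R 4.3.3 and limma 3.58.1 were used.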

Additional observations from a re-analysis of the deposited data

Results flagged for a closer look

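The diet ratio of the bright Mt1 probe set 1422557_s_at and that of Mt2 had opposite signs at both times. Mt1 1422557_s_at had a log2 ratio of diet over chow of -1.90 at 10 weeks and 0.48 at 1 week. Mt2 had -1.32 at 10 weeks and 0.93 at 1 week. With 1 array per group, the difference between times was not tested, and the 1-week ratios lie inside the spread of the chow arrays.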

How the results depend on the processing

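Under 7 alternatives of scaling and floor, 17 of 18 ratios of the 3 probe sets kept their sign, the exception being Mt1 1451612_at between the chow arrays (-0.38), which became 0 with the floor at the 60th percentile. For the diet at 10 weeks Mt1 1422557_s_at ranged from -1.90 to -1.61 and Mt2 from -1.32 to -1.21. The chow reference moved more. With the mean of both chow arrays the 10-week diet ratio was -1.44 for Mt1 1422557_s_at and -0.77 for Mt2, and that of atorvastatin -0.29 and -0.0067. With the 1-week chow array these were -0.97, -0.23, 0.17 and 0.53. Taken as the mean of both probe sets, Mt1 had -0.50 for the diet at 10 weeks, and without s probe sets it reversed to 0.89. For atorvastatin over chow at 10 weeks these choices gave 0.19 and 1.14, against -0.76.

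Of 3 member probe sets, the number past the fold was 2 for the diet at 10 weeks, 0 at 1 week, 1 for atorvastatin over the diet, 1 for atorvastatin over chow, 1 between the chow arrays and 2 between the diet arrays. At 1.5-fold Mt1 1451612_at, 1.86-fold higher, was past the fold too for the diet at 10 weeks, against the direction of the other 2. At 1.5-fold the number was 2 for the diet at 1 week, for both atorvastatin comparisons and for the chow arrays. At 3-fold it was 1 for the diet at 10 weeks and 0 for the diet arrays, the chow arrays and both atorvastatin comparisons. At 1 week it was 1 with cyclic loess and 1 with housekeeping scaling, for the chow arrays 0 with housekeeping scaling, and for atorvastatin over chow 0 with a pseudocount and 0 with the higher floor. Named probe sets past the fold over the 6 comparisons numbered 388 to 1394, with the floor at the 20th percentile 1516 to 3183, at the 60th 169 to 733, with a pseudocount 582 to 1668, at 1.5-fold 2138 to 4403 and at 3-fold 37 to 241. Of the results for related lists, 1082 stayed close and 213 moved, and the red blood cell list had no measured gene at 1 week with the floor at the 60th percentile. No paired analysis was possible because each group has 1 array. The cause of these shifts was not tested. Values near the floor limit the dim Mt1 probe set.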
